A study of Mus musculus with 24 samples.

Results

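The comparison was made in sorted mesenchymal cells of irradiated lungs, between mice in which neutrophils were targeted with an antibody and mice that received a control antibody. It used 8 of the 24 libraries of the series. All mice were female Balb/c and 8 weeks old. All 8 had received 13 Gy targeted to the lungs, which were taken 7 days later. The 4 irradiated libraries came from mice given the IgG control antibody, and the 4 depleted libraries from mice given daily injections of anti-Ly6G. Ly6G is a surface protein of mouse neutrophils, and the antibody is used to remove them. A further group of 4 mesenchymal libraries, from sham-irradiated mice given the IgG control, entered the fit and is given for reference. Each library came from 1 mouse. Mesenchymal cells were gated as negative for CD45 (leukocytes), CD31 (endothelium), Ter119 (erythroid cells) and EpCAM (epithelium), a gate that mixes fibroblasts, smooth muscle cells, pericytes and mesothelial cells. The protocol text repeats CD45 where the cell type entries name CD31. The genes described were all those whose normalised count reached 10 in 4 or more mesenchymal libraries (12 in all), which left 16624 of 48795 identifiers.

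Lung fibroblasts and other stromal cells sense IL-1, TNF and IL-17 and answer through NF-kB and C/EBP transcription factors. The products include chemokines that bind the neutrophil receptor CXCR2, the growth factor G-CSF that releases neutrophils from bone marrow, IL-6 family cytokines, and acute-phase proteins, which bind microbes, iron or haemoglobin or inhibit proteases. Neutrophils take up G-CSF through its receptor, and their uptake by macrophages and dendritic cells is known to restrain the IL-23 and IL-17 axis that drives G-CSF.

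Recovered reads per library ran from 7366672 to 8989716 in the irradiated and from 8960347 to 9932700 in the depleted group, and 3 reads, the most that a count of 0 allows, correspond to normalised counts of 2.70 to 3.66 in these 8 libraries. Reads of mitochondrial genes made up 0.692% and 0.695% on average. The summed level of 18 alveolar fibroblast markers was 214965 to 274704 normalised counts in the irradiated and 177711 to 221267 in the depleted libraries. Markers of gated-out cells were present in all libraries. The 15 leukocyte markers summed to 1361 to 3042 in irradiated and 1061 to 2266 in depleted libraries, the 20 endothelial markers to 4096 to 6706 and 3193 to 5391, and the 15 pan-epithelial markers to 4778 to 8655 and 4812 to 8035. None of these markers was under 3 reads in every library. No member of the 3 lists was called changed, and the median log2 changes of their tested members were -0.37, -0.38 and 0.17 (1, 2 and 1 genes at an unadjusted p under 0.05, and 0 called by DESeq2). The 10 lymphocyte markers summed to 344 to 560 and 196 to 369; 7 were tested and 0 called by limma, DESeq2 or edgeR, with a median of -0.73, none positive and 3 at an unadjusted p under 0.05. With the leukocyte level as a covariate there were 238 higher and 73 lower genes, and 36 of 129 calls of named genes ended, 2 of them among the 15 largest rises and 5 among the 15 largest falls. The part of the other markers in the results was not tested.

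With neutrophils targeted, mesenchymal cells carried more RNA for acute-phase proteins, for neutrophil chemokines and G-CSF, for IL-6 family cytokines and for IL-33. Fewer reads of 2 neutrophil receptors were found among them, while the other tested neutrophil markers were not called. In limma's moderated test with Benjamini-Hochberg adjustment, 448 of 16624 genes were called at an adjusted p under 0.05, which is 2.69% of the genes tested. Of these, 336 (2.02%) were higher and 112 (0.674%) lower in the depleted group, and 80 of the higher and 26 of the lower genes changed at least 2-fold. The median log2 change of all genes was -0.00453. The 4 depleted and 4 irradiated libraries did not overlap for 430 of the called genes, against 1666 of all genes tested (10%). Leaving out depleted replicate 1 lowered the calls to 152 higher and 23 lower, leaving out depleted replicate 4 to 158 and 31, and leaving out irradiated replicate 3 to 177 and 41. Without irradiated replicate 1, 2 or 4 the lower calls were 70, 69 and 36, and without depleted replicate 3 there were 475 higher and 324 lower. Because the samples are bulk populations, a change in the number of cells of a type and a change in RNA per cell cannot be told apart.

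**Figure D1:**
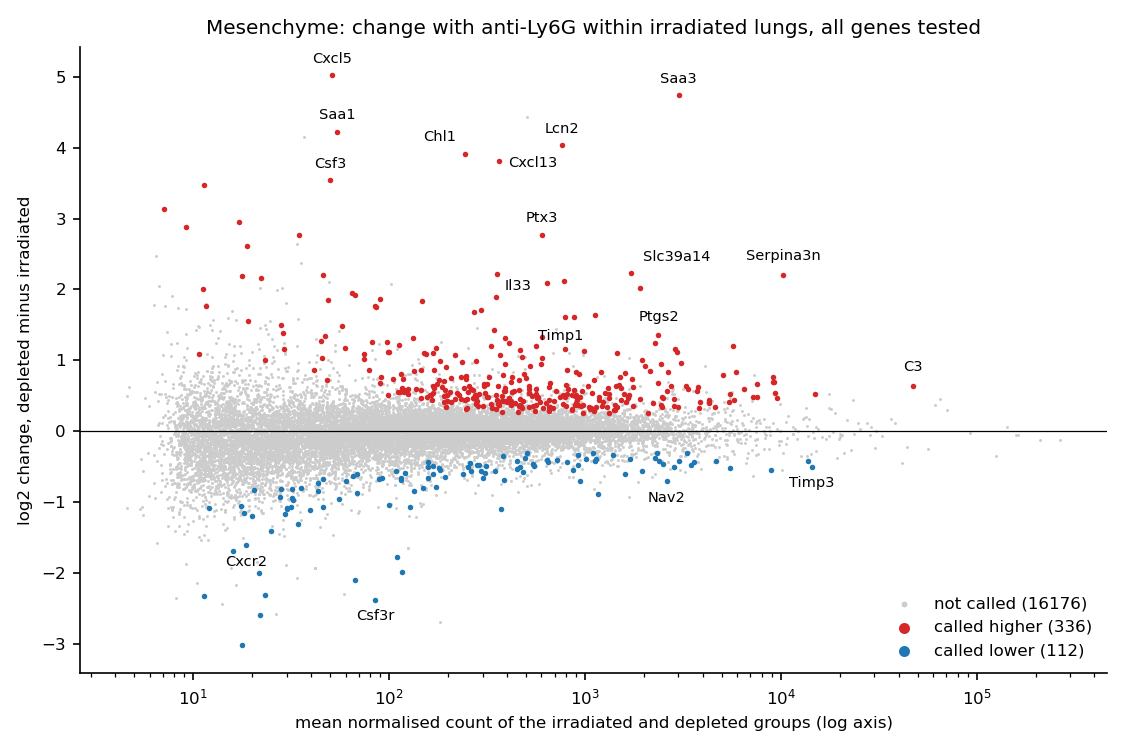
The plot shows every gene tested, with the mean normalised count of both groups on a log axis and the log2 change, depleted minus irradiated, on the other axis. Called genes are coloured (336 higher, 112 lower); Cxcl5 lies at 5.02, Saa3 at 4.74, Saa1 at 4.22, Lcn2 at 4.04 and Csf3r at -2.37.

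Acute-phase genes were among the largest rises. Of 21 listed acute-phase genes 15 were tested, and 11 were higher and 0 lower (background 2.02% higher). The median log2 change of the tested members was 2.12, and in 12 of the 15 the groups did not overlap (10% of all genes). Saa1 and Saa2 passed the filter on low values only because of the depleted libraries. They are included in the 11, the 12 and the median but are no support for them, and without them the median would be lower. The 6 other listed genes, among them Orm1, Orm2 and Apcs, were too low to test. In the GRCm38 annotation Saa3 lies at chr7:46711998-46715700, Lcn2 at chr2:32384633-32388252 and Ptx3 at chr3:66219910-66225805, all protein-coding. Saa3, an inflammation-induced serum amyloid A made outside the liver, had normalised counts of 109, 485, 123 and 259.8 in the irradiated and 5572, 3729, 4486 and 9347 in the depleted libraries. Every depleted library lay above every irradiated one, with depleted replicate 4 highest. The log2 change was 4.74 ± 0.51 (SE, n = 4 per group, adjusted p = 0.00146), which is 26.6-fold, and the sham mean was 45.9 ± 19.1 (SD, n = 4). Lcn2, which binds bacterial iron carriers, had 42.3, 174, 42.7 and 108 in the irradiated and 1320.0, 643, 1177 and 2616 in the depleted libraries. The groups were apart by a wide gap, with a log2 change of 4.04 ± 0.53 (adjusted p = 0.00371). Ptx3, a soluble pattern-recognition protein, had 196, 201, 84.4 and 123 in irradiated and 1321, 1164, 481 and 1243 in depleted libraries. Replicate 3 was lowest in both groups, and the log2 change was 2.77 ± 0.36 (adjusted p = 0.00278).

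Saa1 and Saa2, near-identical neighbours on chromosome 7 between which reads can be split, were almost unread in irradiated lungs. Saa1 had 15 reads over the 4 irradiated and 422 over the 4 depleted libraries, and Saa2 had 14 and 136. Summed over both genes, the normalised counts were 4.13, 11.4, 8.14 and 8.54 in the irradiated and 70.7, 68.4, 82.1 and 331 in the depleted libraries. Depleted replicate 4 stood well above the other depleted libraries. The call of Saa2 ended without depleted replicate 1 (adjusted p = 0.0518) or 4 (0.0633), while that of Saa1 held (adjusted p of at most 0.00412). The fitted log2 change of such low genes depends on the pseudocount, from 4.43 with 0.5 to 2.92 with 8 for Saa1. Serpina3n, an inhibitor of serine proteases, had 1809, 5162, 3158 and 4748 normalised counts in irradiated and 15825, 11115, 13418 and 26807 in depleted libraries. Its log2 change was 2.2 ± 0.35 (adjusted p = 0.00969), and its relatives Serpina3m and Serpina3g, which share sequence with it, changed by 2.22 ± 0.39 (adjusted p = 0.0152) and 1.11 ± 0.27 (adjusted p = 0.0447). Lbp, which presents lipopolysaccharide to its receptors, had 436, 786, 438 and 576 in irradiated and 1788, 1442, 1642 and 1939 in depleted libraries (log2 change 1.64 ± 0.16, adjusted p = 0.000224). Hp, the haemoglobin-binding protein, rose by 2.12 ± 0.42 (adjusted p = 0.0293), with 166 to 444 in irradiated and 731 to 2399 in depleted libraries. Cp, the copper-carrying ferroxidase, rose by 0.48 ± 0.11 (adjusted p = 0.0248). The calls of Saa3, Saa1, Lcn2, Ptx3, Serpina3n and Lbp held under all alternatives that tested them. The call of Hp ended without depleted replicate 1 (adjusted p = 0.0742) or 4 (0.0525) and without irradiated replicate 1 (0.0681) or 3 (0.0757), with both groups alone (0.102), with the leukocyte covariate (0.0748) and with no filter (0.0562). That of Cp ended with both groups alone (0.063) and without depleted replicate 4 (0.0767) or irradiated replicate 1 (0.0554), 2 (0.0572) or 3 (0.0598); that of Serpina3m ended with both groups alone (0.0675) and without irradiated replicate 3 (0.0529); and that of Serpina3g ended under 12 alternatives, with an adjusted p of up to 0.127.

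**Figure D2:**
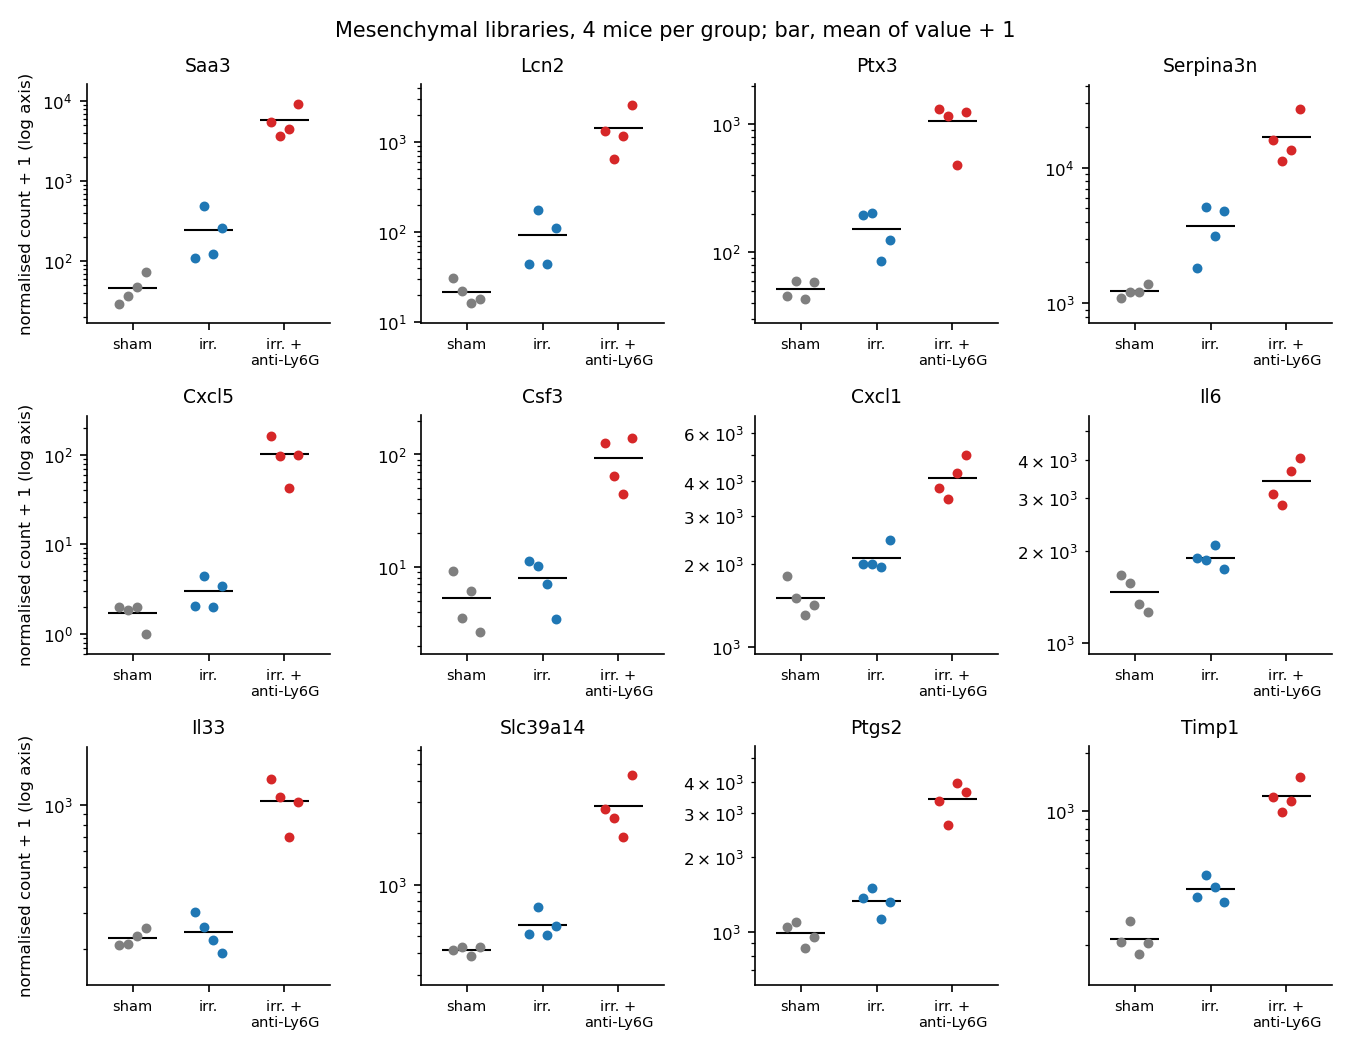
Each panel plots the normalised count plus 1 of 1 gene on a log axis in the 12 mesenchymal libraries (4 mice in each of the sham, irradiated, and irradiated with anti-Ly6G groups), and the bar is the mean. In all 12 genes the depleted libraries lie above the irradiated ones, from 1.78-fold for Il6 to 32.4-fold for Cxcl5 in the fit.

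The 250 bases before the RefSeq start of 5 of the rising genes are shown because these windows hold short motifs of the 2 factor families named above (RefSeq, GRCm38.p6, each on the strand of its gene). The windows are Saa3 at chr7:46715677-46715926 and Saa1 at chr7:46742981-46743230 on the minus strand, and Ptx3 at chr3:66219637-66219886, Il6 at chr5:30012864-30013113 and Cxcl1 at chr5:90890995-90891244 on the plus strand. Capitals mark matches to TTGCNNAA, a C/EBP-type motif, or to GGG and TCC with 4 bases between them, an NF-kB-type motif, either one searched on both strands and chosen with the results known.
Saa3: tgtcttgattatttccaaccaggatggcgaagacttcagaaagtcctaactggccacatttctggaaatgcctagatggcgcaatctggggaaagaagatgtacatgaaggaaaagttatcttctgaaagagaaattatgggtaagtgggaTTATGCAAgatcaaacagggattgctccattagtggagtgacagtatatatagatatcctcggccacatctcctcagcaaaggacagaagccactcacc
Saa1: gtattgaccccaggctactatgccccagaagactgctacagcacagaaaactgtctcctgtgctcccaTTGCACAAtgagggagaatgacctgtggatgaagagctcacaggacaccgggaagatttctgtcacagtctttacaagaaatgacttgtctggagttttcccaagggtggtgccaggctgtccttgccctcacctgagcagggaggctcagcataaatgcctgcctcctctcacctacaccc
Ptx3: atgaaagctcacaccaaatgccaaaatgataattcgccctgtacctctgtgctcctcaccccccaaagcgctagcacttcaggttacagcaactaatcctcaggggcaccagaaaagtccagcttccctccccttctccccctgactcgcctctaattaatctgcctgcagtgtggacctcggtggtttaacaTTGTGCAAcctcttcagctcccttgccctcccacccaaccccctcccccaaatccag
Il6: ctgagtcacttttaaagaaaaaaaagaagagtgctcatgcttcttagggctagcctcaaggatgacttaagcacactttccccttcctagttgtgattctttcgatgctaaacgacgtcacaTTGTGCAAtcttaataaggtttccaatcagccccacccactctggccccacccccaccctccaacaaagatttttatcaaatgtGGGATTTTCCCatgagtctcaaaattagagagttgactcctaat
Cxcl1: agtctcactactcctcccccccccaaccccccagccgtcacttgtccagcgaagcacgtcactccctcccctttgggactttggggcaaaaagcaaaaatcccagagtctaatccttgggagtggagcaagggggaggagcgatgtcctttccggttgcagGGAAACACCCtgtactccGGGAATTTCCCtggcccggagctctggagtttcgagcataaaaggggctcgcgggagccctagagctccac
The C/EBP-type match stood 99 bases before the start in Saa3, 182 in Saa1, 57 in Ptx3 and 128 in Il6. Il6 also held a pair of overlapping NF-kB-type matches 44 and 43 bases before the start. Cxcl1 held 3 NF-kB-type matches, at 89, 71 and 70 bases, of which the last pair overlap, and no C/EBP-type match in this window. TTGCNNAA was present in 9.56% and the NF-kB-type motif in 16.5% of all 32851 promoters of this length. Among genes with a promoter in the table, TTGCNNAA was found in 15% of those called higher (37 of 247), 7.35% of those called lower (5 of 68) and 9.02% of those tested, and the NF-kB-type motif in 28.3%, 30.9% and 23.9%. The 5 windows were picked for their matches. Of the other rising genes looked at, Chl1, Sod2 and 1 of 2 starts of Il33 had no match of either motif. A match is a letter pattern and not evidence of binding.

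Some neutrophil-recruiting ligands rose while a receptor that neutrophils carry fell. Among 18 listed chemokines, colony-stimulating factors and receptors 11 were tested, with 5 higher and 1 lower (background 2.02% and 0.674%). Of the 11, 6 had a positive log2 change, the median was 0.67, and the groups were separate for 7 (10% of all genes). Cxcl5 lies at chr5:90759360-90761624 and Csf3 at chr11:98701263-98703629. Cxcl5, a CXCR2 ligand, had normalised counts of 1.03, 3.41, 1.02 and 2.44 in the irradiated and 163, 97.2, 41.6 and 98.8 in the depleted libraries, that is 7 reads against 408. It was close to silent in all irradiated libraries and read in all depleted ones. The fitted log2 change was 5.02 ± 0.46 (adjusted p = 4.73e-05), and with a pseudocount of 8 it was 3.31. Csf3, which encodes G-CSF, had 10.3, 9.11, 6.10 and 2.44 in irradiated and 125, 63.9, 43.5 and 139 in depleted libraries, with separate groups. The log2 change of Csf3 was 3.54 ± 0.48 (adjusted p = 0.00108). Both genes needed the depleted libraries to pass the filter, so they are no support for these counts, although they are included in them. Leaving them out of the 5 higher genes leaves Cxcl1, Cxcl12 and Il17ra. They are also among the 7 with separate groups and the 6 with a positive change. Without them the list median would not be positive. Leaving out any of the 12 libraries, on the same genes, kept the log2 change of Cxcl5 between 4.73 and 5.38 with an adjusted p of at most 0.000472, a setting added after the data were seen. Cxcl1, another CXCR2 ligand, was far more abundant, at 1120.5 normalised counts per kilobase of exon in irradiated lungs against 1.06 for Cxcl5. Cxcl1 had 2006, 2001, 1954 and 2443 in irradiated and 3772, 3446, 4275 and 4999 in depleted libraries (log2 change 0.96 ± 0.12, adjusted p = 0.000657). Cxcl2, also a ligand of that receptor, had 81.5 to 129 in irradiated and 147 to 256 in depleted libraries, but its adjusted p was 0.0863. Cxcl12, the CXCR4 ligand that retains neutrophils in marrow, rose by 0.67 ± 0.14 (adjusted p = 0.0221), a call that ended with both groups alone (0.0711) and without depleted replicate 1 (0.0779) or irradiated replicate 1 (0.0532), 2 (0.0526) or 3 (0.0632).

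The receptor side of the same list included Il17ra, the shared receptor chain for IL-17A and IL-17F. Il17ra had 476, 569, 517 and 382 in the irradiated and 999, 1154, 837 and 1372 in the depleted libraries. All depleted libraries were above all irradiated ones, with a log2 change of 1.16 ± 0.20 (adjusted p = 0.0136). Of the cytokines upstream, Il17a was listed at no more than 1.22 and Il17f at no more than 1.93 in these 12 libraries, and Il22 was listed at 0 in all of them. Il23a, the IL-23 subunit, was not tested because too few libraries reached 10. Its values were 5.16, 9.11, 4.07 and 6.10 in irradiated and 24.6, 9.0, 28.99 and 70.5 in depleted libraries, so that 1 depleted library lay within the irradiated range.

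Neutrophil transcripts in the mesenchymal gate moved in different directions. Csf3r, the G-CSF receptor of neutrophils, had 87.7, 229.9, 189 and 74.4 in irradiated and 25.6, 31.5, 19.3 and 22.2 in depleted libraries, below the sham mean of 61.4 ± 31.7. The groups did not overlap, and the log2 change was -2.37 ± 0.39 (adjusted p = 0.00711). Cxcr2 had 21.7, 35.3, 30.5 and 23.2 in irradiated and 3.07, 15.3, 6.76 and 13.1 in depleted libraries (log2 change -1.61 ± 0.41, adjusted p = 0.0471). That call ended under 13 alternatives, with an adjusted p of up to 0.133, among them leaving out depleted replicate 1 (0.133), 3 (0.0667) or 4 (0.0584) and any of the irradiated libraries (0.0641 to 0.115). The granule and calcium-binding genes were not called. S100a8 had 52.6, 84.2, 66.1 and 39.0 in irradiated and 60.5, 102, 63.8 and 184 in depleted libraries (adjusted p = 0.451), and S100a9 had 121 to 274 and 78.3 to 246 (adjusted p = 0.704). Retnlg and Mmp9 had adjusted p of 0.799 and 0.478. Of the 15 neutrophil markers 11 were tested, and 2 were lower (18.2%, background 0.674%) and 0 higher. Of the 11, 5 had a positive log2 change, the highest 1.59, and up to 2 were called higher under an alternative. Camp, too low to test, had 1.22 to 4.55 in irradiated and 5.04 to 12.6 in depleted libraries. The list summed to 581 to 1032 normalised counts in irradiated, 461 to 874 in depleted and 300.2 to 546 in sham libraries. Ly6g, the gene of the targeted antigen, was listed at no more than 2.70 in any library, which is 3 reads, so it gave no check of the depletion.

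**Figure D3:**
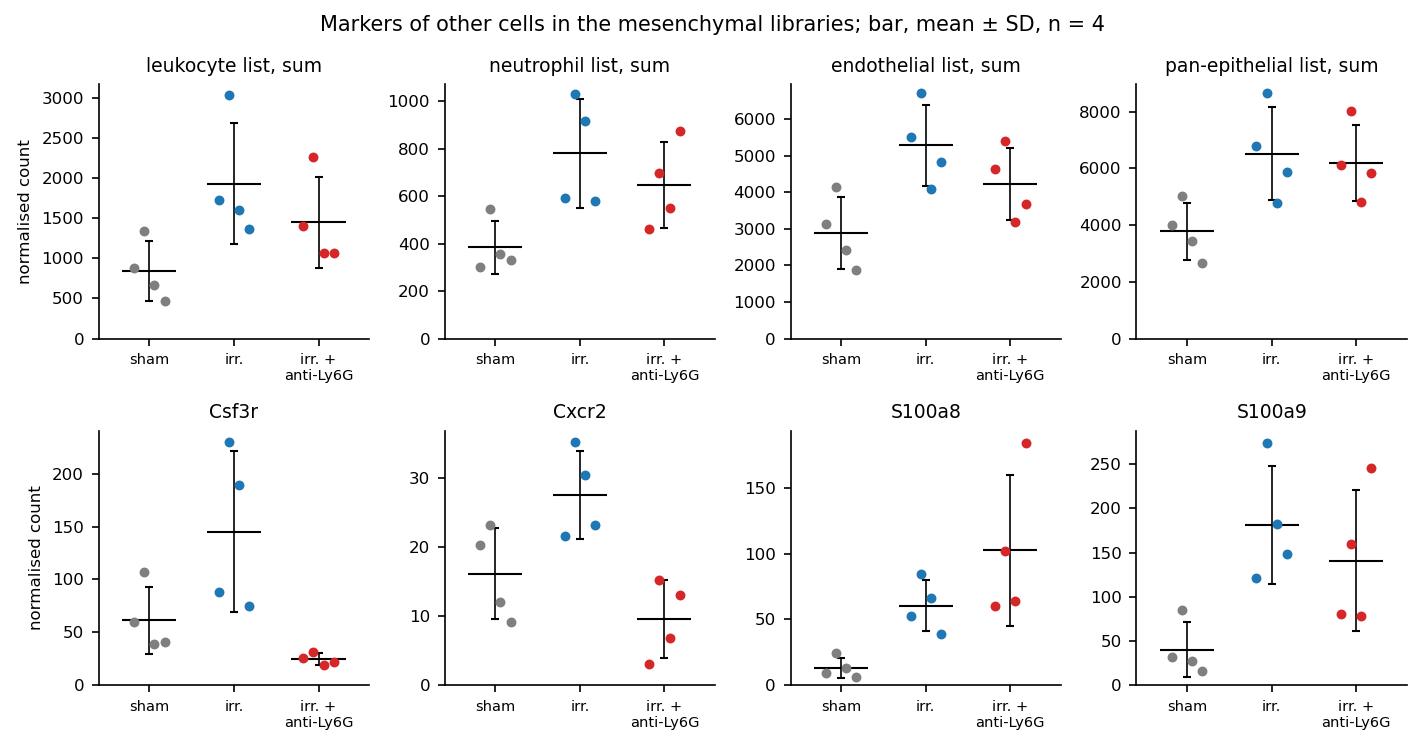
The upper panels plot the summed normalised count of 4 marker lists in each mesenchymal library and the lower panels 4 neutrophil genes (bar and whiskers, mean ± SD, n = 4 mice). Csf3r is 19.3 to 31.5 in the depleted and 74.4 to 229.9 in the irradiated libraries, while the S100a8 and S100a9 groups overlap.

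Other chemokines rose singly. Ccl7, which attracts monocytes, had 176, 172, 169 and 222 in irradiated and 542, 382, 518 and 561 in depleted libraries. The groups were well apart (log2 change 1.43 ± 0.13, adjusted p = 4.73e-05). Ccl11, the eosinophil chemokine eotaxin, rose by 0.67 ± 0.13 (adjusted p = 0.0155). Ccl7 and Ccl11 were the 2 of 11 tested CC chemokines called (18.2%, background 2.02% higher), with a list median of 0.35. The call of Ccl11 ended without depleted replicate 1 (0.0520) or 4 (0.0569) or irradiated replicate 3 (0.0557). Ccl2 had 457 to 739 in irradiated and 745 to 884 in depleted libraries but did not pass (adjusted p = 0.0863). Cxcl13, which attracts B cells, had 51.6, 68.3, 8.14 and 132 in irradiated and 852, 668, 428 and 704 in depleted libraries (log2 change 3.81 ± 0.76, adjusted p = 0.0312). Irradiated replicate 3 was low, and the call ended without depleted replicate 1 (0.0920), 2 (0.0638) or 4 (0.102) or irradiated replicate 1 (0.0648) or 2 (0.0560), with both groups alone (0.0855), with the leukocyte covariate (0.0738) and with no filter (0.0586).

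IL-6 family ligands and receptors were among the genes that rose. Of 20 tested genes of the family, its STAT3 targets and its inhibitors, 5 were higher (25%, background 2.02%) and 0 lower, with a median of 0.26. Il6 had 1897, 1874, 2103 and 1749 in the irradiated and 3082, 2834, 3692 and 4074 in the depleted libraries. The groups were apart in a gene of high level (log2 change 0.83 ± 0.12, adjusted p = 0.00108). Lif, a ligand of the same receptor family, had 285, 312, 376 and 361 in irradiated and 648, 658, 846 and 1369 in depleted libraries (log2 change 1.34 ± 0.22, adjusted p = 0.00789). Il6st, the shared receptor chain gp130, rose by 0.70 ± 0.10 (adjusted p = 0.00139), and Il4ra, the IL-4 receptor chain, by 0.77 ± 0.13 (adjusted p = 0.00567). The kinase gene Pim1 rose by 0.52 ± 0.11 (adjusted p = 0.0254), a call that ended with both groups alone (0.0603) and without depleted replicate 1 (0.0766) or 4 (0.0631) or irradiated replicate 1 (0.0635) or 4 (0.0810). Socs3, the feedback inhibitor of this pathway, had a log2 change of 0.08 ± 0.10 (adjusted p = 0.742), and Stat3 one of 0.32 ± 0.11 (adjusted p = 0.143). C/EBP factors that act on acute-phase genes were also called, Cebpd with 0.62 ± 0.11 (adjusted p = 0.00565) and Cebpb with 0.46 ± 0.09 (adjusted p = 0.0159). The call of Cebpb ended without depleted replicate 1 (0.0658) or 4 (0.0549) or irradiated replicate 2 (0.0502).

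Genes of IL-1, TNF and NF-kB signalling were higher in 9 (29.0%, background 2.02%) and lower in 0 of 31 tested members, with a median of 0.21. Il33, an alarmin of the IL-1 family stored in the nucleus, had 300.2, 255, 219.7 and 190.3 in irradiated and 1342, 1087, 701 and 1028 in depleted libraries. Sham libraries (208 to 250.3) lay within the irradiated range, so the higher level was seen in the depleted group (log2 change 2.08 ± 0.18, adjusted p = 7.36e-05). Il1r1, the IL-1 receptor, had 1262, 1491, 1463 and 1333 in irradiated and 2474, 2679, 2264 and 3184 in depleted libraries (log2 change 0.93 ± 0.09, adjusted p = 7.36e-05). Tnfrsf1a, a TNF receptor, rose by 0.53 ± 0.08 (adjusted p = 0.0013). The calls of Tnfaip2 and Birc3, also among the 9, ended under 3 and 11 alternatives, with adjusted p of up to 0.0739 and 0.141. The inhibitors Nfkbia, Tnfaip3 and Irak3 rose by 0.34, 0.60 and 0.43 (adjusted p = 0.0208, 0.0406 and 0.0374), but these calls ended under 4, 12 and 10 alternatives, with adjusted p of up to 0.0727, 0.140 and 0.132, in each case without depleted replicate 1 or 4 or irradiated replicate 2 or 3 among others. Il1b itself, made mainly by myeloid cells, had 93.9 to 240.1 in irradiated and 53.1 to 131 in depleted libraries (log2 change -1.19 ± 0.39, adjusted p = 0.137). Ptgs2, the inducible cyclooxygenase, had 1373, 1506, 1125 and 1317 in irradiated and 3347, 2686, 3969 and 3667 in depleted libraries. That was a log2 change of 1.35 ± 0.12 (adjusted p = 4.73e-05), the largest of the 3 called higher among 15 prostaglandin genes (20%, background 2.02%). The calls of Ptger4 and Ptgis, also among the 3, ended under 3 and 12 alternatives, with adjusted p of up to 0.0599 and 0.120.

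Metal-handling and antioxidant genes were higher in 6 (20.7%, background 2.02%) and lower in 0 of 29 tested. Slc39a14, the zinc and iron importer ZIP14, had 517, 738, 511 and 576 in irradiated and 2752, 2442, 1884 and 4311 in depleted libraries. All depleted values were above all irradiated ones (log2 change 2.23 ± 0.21, adjusted p = 0.000312). The metallothionein Mt2 had 721, 717, 633 and 861 in irradiated and 3493, 2774, 1821 and 4349 in depleted libraries (log2 change 2.02 ± 0.22, adjusted p = 0.000831). Mt1 changed by 1.12 ± 0.21 (adjusted p = 0.0174), a call that ended with both groups alone (0.0602), with no filter (0.0512) and without depleted replicate 1 (0.0644) or irradiated replicate 1 (at the threshold) or 3 (0.0560). Sod2, the mitochondrial superoxide dismutase, rose by 1.10 ± 0.13 (adjusted p = 0.000608) and Fth1, the ferritin heavy chain, by 0.53 ± 0.09 (adjusted p = 0.00558). Of 20 listed glucocorticoid-responsive genes, which overlap these lists through Lcn2, Mt1, Mt2, Cebpd and Nfkbia, 7 were higher (35%, background 2.02%) and 0 lower. All 20 had a positive log2 change, with a median of 0.66. Angptl4, an inhibitor of lipoprotein lipase in that list, rose by 1.00 ± 0.16 (adjusted p = 0.00476).

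Complement genes were higher in 4 (16.7%, background 2.02%) and lower in 1 (4.17%, background 0.674%) of 24 tested. Cfb, factor B of the alternative pathway, had 1363, 1559, 1171 and 1337 in irradiated and 3555, 2752, 3215 and 3331 in depleted libraries (log2 change 1.24 ± 0.10, adjusted p = 1.99e-05). C3, the central component, was read at 36719 ± 2817 in irradiated and 57721 ± 8176 in depleted libraries (SD, n = 4; log2 change 0.64 ± 0.11, adjusted p = 0.0059). Both genes had sham means below the irradiated ones, 653 for Cfb and 23419 for C3. C6 and C1ra rose by 1.08 and 0.45 (adjusted p = 0.0281 and 0.0182). Their calls ended under 5 and 2 alternatives, with adjusted p of up to 0.100 and 0.0765. Cd55, which limits complement on the cell surface, fell by 0.60 ± 0.14 (adjusted p = 0.0406), and that call ended under 12 alternatives (adjusted p of up to 0.132). Of 29 type I interferon response genes 0 were higher and 1 was lower (3.45%, background 0.674%), Ifit2 (log2 change -0.35 ± 0.06, adjusted p = 0.00532). Of 20 antigen-presentation genes 0 were called by limma, DESeq2 or edgeR, 1 had an unadjusted p under 0.05, and their median was -0.13.

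Chaperones of the endoplasmic reticulum moved together. Of 24 genes of the unfolded protein response and folding machinery, 8 were higher (33.3%, background 2.02%) and 0 lower. A positive log2 change was found in 23, and the groups were separate for 15 (10% of all genes). The median was 0.36. Manf, a secreted stress factor, had 306, 321, 358 and 280.5 in irradiated and 499, 515, 414 and 652 in depleted libraries (log2 change 0.70 ± 0.13, adjusted p = 0.00708). Pdia6, a disulfide isomerase, rose by 0.48 ± 0.09 (adjusted p = 0.00636) and the transcription factor Xbp1 by 0.48 ± 0.10 (adjusted p = 0.0167). Hspa5, the chaperone BiP, had 4211 to 5371 in irradiated and 5521 to 8181 in depleted libraries and lay just outside the threshold (adjusted p = 0.05). The number of calls in this list ranged from 3, without depleted replicate 1, to 14 with DESeq2. Of 76 ribosomal protein genes 6 were higher (7.9%, background 2.02%) and 0 lower, 72 had a positive log2 change, and the median was 0.19. The ribosomal calls ranged from 1 to 14 over the alternatives. The 22 cytosolic heat shock genes gave 3 calls, Hspb8, Hspb1 and Hspe1, all higher (13.6%, background 2.02%).

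Matrix genes changed in part. Of 26 proteases and inhibitors 3 were higher (11.5%, background 2.02%) and 1 lower (3.85%, background 0.674%). Timp1, a metalloproteinase inhibitor induced by IL-6 family signals, had 353, 462, 401 and 334 in irradiated and 1174, 982, 1121 and 1491 in depleted libraries. The groups were far apart (log2 change 1.61 ± 0.14, adjusted p = 7.36e-05). Its relative Timp3 went the other way, by -0.50 ± 0.12 (adjusted p = 0.0315), with overlapping groups and a call that ended under 8 alternatives (adjusted p of up to 0.108). Mmp3, the protease stromelysin, rose by 0.82 ± 0.11 (adjusted p = 0.000899). The crosslinking enzyme gene Lox had 2546 to 3801 in irradiated and 5705 to 12586 in depleted libraries (log2 change 1.20 ± 0.25, adjusted p = 0.0287). That call ended without depleted replicate 1 (0.0832) or irradiated replicate 1 (0.0698), 3 (0.0737) or 4 (0.0604), with both groups alone (0.063), with the leukocyte covariate (0.0608) and with no filter (0.0746). Among 28 collagens the basement-membrane chains Col4a1 and Col4a2 were called higher (7.14%, background 2.02%), by 0.52 and 0.47. Both calls were lost without depleted replicate 1 among others (highest adjusted p 0.0757 and 0.124). The fibrillar collagens Col1a1 and Col3a1 were not called (adjusted p = 0.724 and 0.198). Of 34 growth factors and receptors of the alveolar niche 3 were higher (8.82%, background 2.02%) and 0 lower. Ereg, a ligand of the EGF receptor, had 32, 50.1, 40.7 and 30.5 in irradiated and 148, 105, 106 and 170.3 in depleted libraries (log2 change 1.76 ± 0.22, adjusted p = 0.000608). Its receptor Egfr rose by 0.85 ± 0.12 (adjusted p = 0.00107) and the IGF-binding protein Igfbp4 by 0.77 ± 0.10 (adjusted p = 0.000863). Tgfbr2, a TGF-beta receptor, rose by 0.66 ± 0.10 (adjusted p = 0.00168). It was the only call among 31 tested genes of that pathway, a share of 3.23% near the background of 2.02% higher.

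Genes of the DNA damage programmes were called at shares near the background. Of 30 p53 targets 1 (3.33%, background 2.02% higher) was called, Fas, with a log2 change of 0.46 ± 0.10 (adjusted p = 0.0221), and the list median was 0.03. The call of Fas ended without depleted replicate 4 (0.0837) or irradiated replicate 2 (0.0526) or 3 (0.0628). Cdkn1a, the cell cycle inhibitor p21, had 2659 ± 306 in irradiated, 3261 ± 485 in depleted and 618 ± 98.4 in sham libraries (SD, n = 4; adjusted p = 0.221 for depleted against irradiated). None of 29 DNA repair, 27 cell cycle and 18 clock genes was called by limma, with medians of -0.08, 0.05 and 0.03, while 2, 2 and 3 of them had an unadjusted p under 0.05. DESeq2 called 1 repair gene and 1 clock gene lower, and edgeR called 0. Of 38 Notch genes Dtx4 was higher and of 39 Wnt genes Sfrp1, shares of 2.63% and 2.56% beside the background of 2.02% higher. Of 20 YAP and TAZ targets Arhgef17 was lower (5.00%, background 0.674%). The calls of Sfrp1 and Arhgef17 each ended under 9 alternatives, with adjusted p of up to 0.110 and 0.111. None of 18 alveolar fibroblast genes was called by limma or edgeR and 1 was called lower by DESeq2, with 6 at an unadjusted p under 0.05 and a median of -0.17. In the adventitial fibroblast list 3 of 17 were higher (17.65%, background 2.02%) and 0 lower, namely Igfbp4, Ccl11 and Ly6c1. Of the 17, 10 had a positive change, and the median was 0.03. The call of Ly6c1 ended under 6 alternatives, with an adjusted p of up to 0.107. In the smooth muscle list 1 of 15 was lower (6.67%, background 0.674%). It was Mylk (log2 change -0.41 ± 0.10, adjusted p = 0.0350), a call that ended under 9 alternatives with an adjusted p of up to 0.120. None of the 15 had a positive change. The 13 pericyte markers summed to 18757 to 21494 in the irradiated and 14239 to 17706 in the depleted libraries, so that the groups did not overlap. Their median log2 change was -0.30, 1 of the 13 had a positive change and 6 had an unadjusted p under 0.05. The only pericyte gene called (7.69%, background 2.02% higher) was Kcnj8, a potassium channel gene, which was higher (0.54 ± 0.12, adjusted p = 0.0215). That call ended without depleted replicate 1 (0.0819) or 4 (0.0702) or irradiated replicate 1 (0.0511) or 2 (0.0605). The part of this shift in the other results was not tested.

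**Figure D4:**
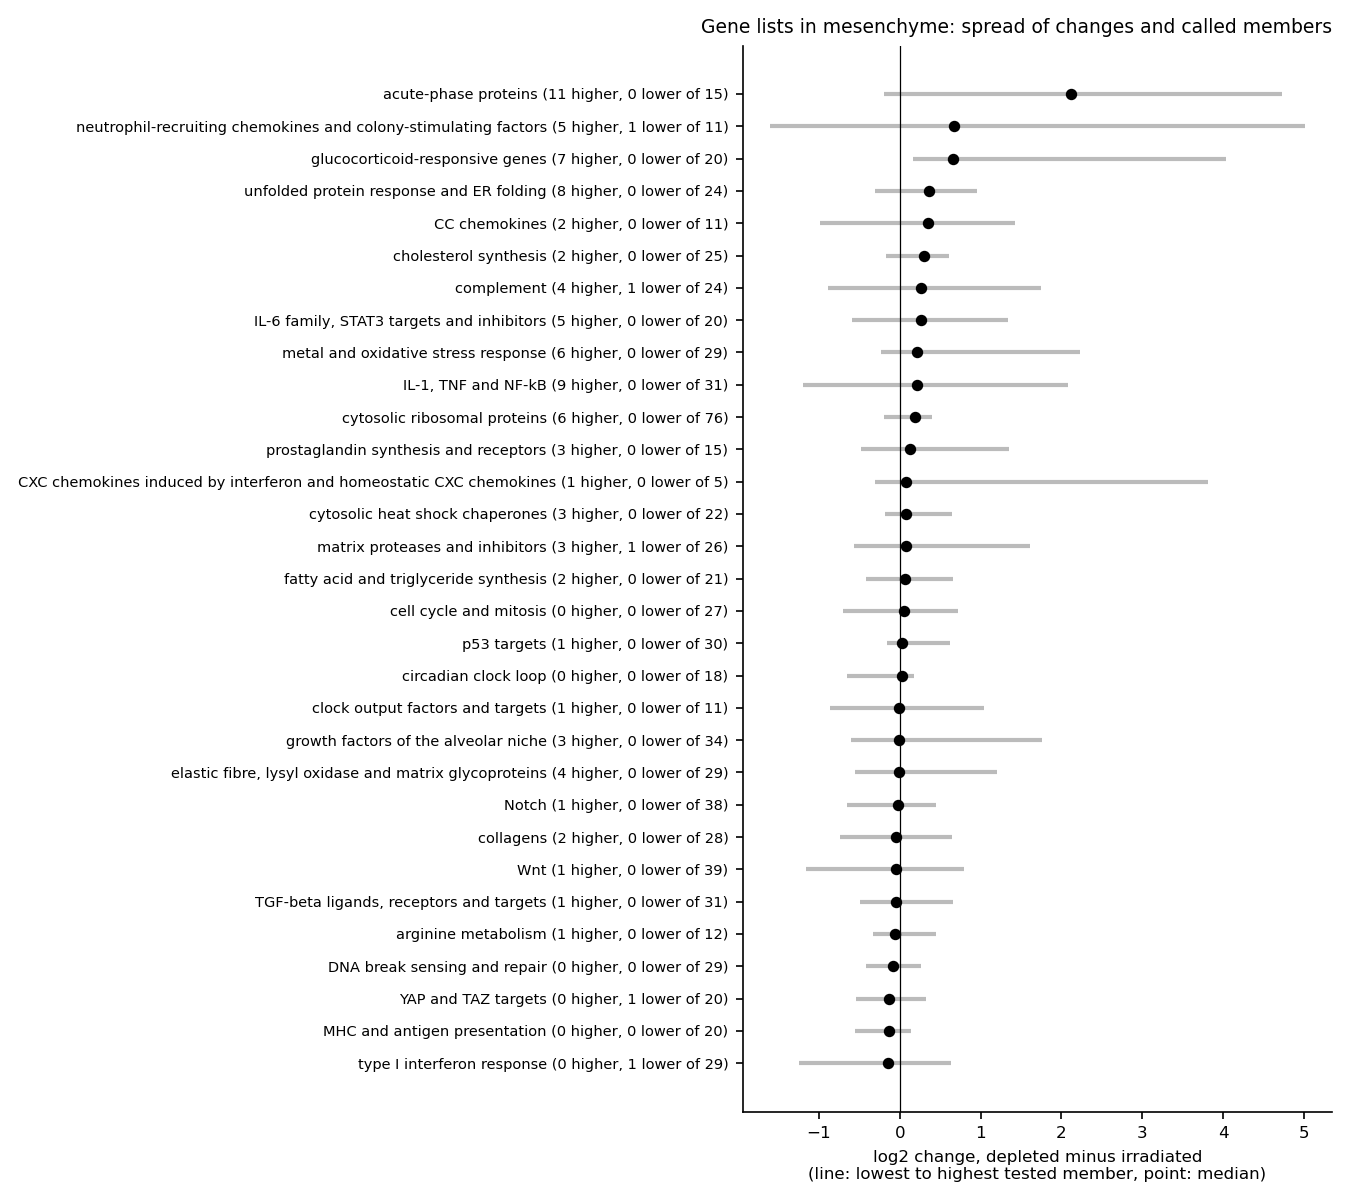
Each line runs from the lowest to the highest log2 change (depleted minus irradiated) among the tested members of a gene list, the point is the median, and the counts of called members stand beside the name. The acute-phase list has a median of 2.12 with Saa1 and Saa2 included, and the p53, DNA repair, cell cycle and clock lists have medians between -0.08 and 0.05.

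Fewer genes fell than rose. Among called falls with a mean of at least 50 normalised counts in the irradiated group and separate groups, Csf3r was followed by Cass4, an adhesion scaffold gene, with 436, 420.0, 611 and 543 in irradiated and 234, 215, 342 and 169 in depleted libraries (log2 change -1.09 ± 0.20, adjusted p = 0.0150), and Ryr3, a calcium release channel (-1.06 ± 0.23, adjusted p = 0.0315). Chst8, a sulfotransferase gene, had 140.3, 117, 123 and 155 in irradiated and 56.4, 74.7, 80.2 and 50.4 in depleted libraries. Those groups were separate by a wide gap (log2 change -1.04 ± 0.16, adjusted p = 0.00177). Nav2, a neuron navigator gene, had 3160, 3098, 3118 and 3541 in irradiated and 1751, 2442, 2168 and 1656 in depleted libraries (log2 change -0.70 ± 0.10, adjusted p = 0.0015). Sema3d, a secreted guidance factor, changed by -0.70 ± 0.12 (adjusted p = 0.00718). Among the others of the 15 largest falls at that level, Nckap5, Tmem200a, Slco5a1, Ggnbp1, Tppp, Chn2, Cplx2 and Bspry changed by -0.88 to -0.63. The calls of Csf3r, Chst8, Nav2 and Sema3d ended under no alternative, and those of the other 11 ended under at least 1, Cass4 without depleted replicate 1 alone (adjusted p = 0.0520). Depleted replicate 4 was the lowest depleted library in 12 of the 15 falls and the highest in 9 of the 15 largest rises.

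Part of the response was found in the epithelial fraction of the same design and part was larger in mesenchyme. The difference between the changes of both fractions was tested over all 24 libraries and 15092 genes, and 90 genes (0.596%) passed, 75 with the change above and 15 below that of epithelium. Of 315 mesenchymal rises tested in both fractions 60 differed from epithelium, and of 102 falls 7 did; the choice by the mesenchymal change favours such differences, so these shares are a description. Lcn2 changed by 3.36 ± 0.57 more in mesenchyme on the log2 scale (adjusted p = 0.00763), Ptx3 by 2.55 ± 0.39 (0.00183) and Il33 by 1.94 ± 0.20 (4.17e-05). For Cxcl5 the difference was 3.75 ± 0.67 (adjusted p = 0.00515), with a change of 1.27 in epithelium (adjusted p = 0.253). Cxcl5 passed the mesenchymal filter only through the depleted libraries, so this difference is a description. In epithelium the changes of Ptx3 and Il33 were 0.23 (adjusted p = 0.850) and 0.14 (0.810). Lbp, Slc39a14, Ptgs2 and Sod2 also differed, by 1.45, 1.48, 1.37 and 1.04. For Saa3 the change was 4.01 in epithelium (adjusted p = 0.000281) and the difference was 0.72 ± 0.66 (adjusted p = 0.752). Serpina3n and Timp1 changed by 2.17 and 2.05 in epithelium, with differences of 0.03 ± 0.54 and -0.43 ± 0.45 (adjusted p = 0.994 and 0.791). Chl1, a neural adhesion gene that had 17.5, 39.8, 21.4 and 42.7 in irradiated and 640.5, 395, 319.9 and 465 in depleted mesenchymal libraries, changed by 3.91 ± 0.31 there (adjusted p = 4.73e-05) and by 3.27 in epithelium. The difference for Chl1 was 0.64 ± 0.55 (adjusted p = 0.725), which does not show that the fractions acted alike. Cxcl1 and Il6 changed by 0.21 and 0.10 in epithelium, but their differences did not pass (0.76, adjusted p = 0.293, and 0.73, adjusted p = 0.27). The count of 90 was 43 without mesenchymal depleted replicate 4, 45 without mesenchymal depleted replicate 1, 51 without mesenchymal irradiated replicate 4, 53, 54 and 57 without epithelial irradiated replicate 1 or 3 or epithelial depleted replicate 1, and 152 without mesenchymal depleted replicate 3. The fractions come from sorted lungs of the same groups, and the labels do not pair a mesenchymal with an epithelial library.

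**Figure D5:**
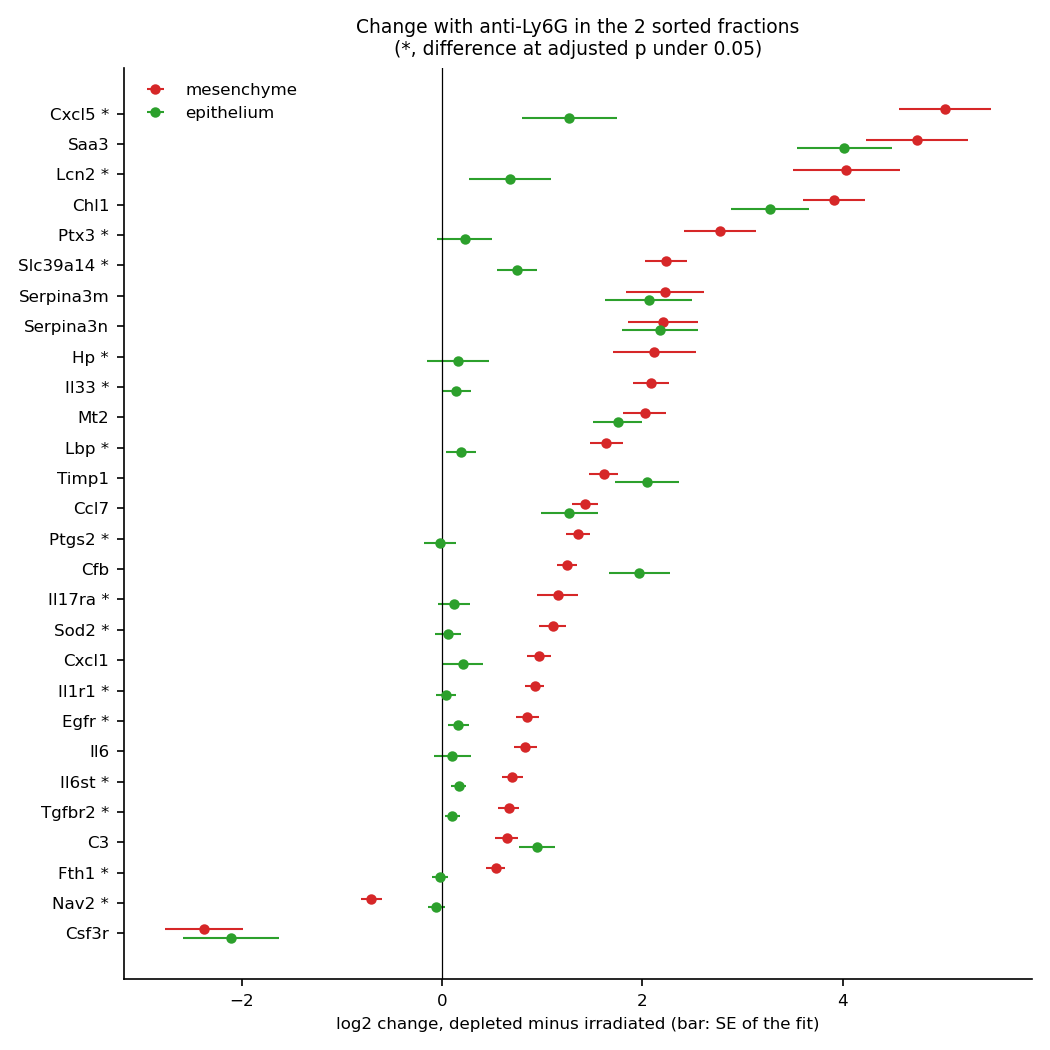
Points show the log2 change, depleted minus irradiated, in mesenchyme and in epithelium for 28 genes, with the standard error of each fit as a bar; an asterisk marks a tested difference between the fractions. Saa3, Chl1, Serpina3n and Timp1 lie above 0 in both and carry no asterisk, which does not show equal changes. Ptx3, Il33 and Lbp lie near 0 in epithelium (0.23, 0.14 and 0.19).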

How the data were processed

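RNA was sequenced from sorted mesenchymal and epithelial cells, and the 12 mesenchymal libraries were fitted together. The submitters' processing notes name cutadapt 1.5, STAR 2.2.2a, SAMtools 1.8, RSEM 1.3.0, DESeq2 and the build GRCm38, with no role or order, and the annotation release is not given in the sources used here. The deposited values are a signal per gene, named normalised counts. They were treated as counts divided by a size factor per library, because dividing by each library's step gave whole reads within 0.001. No column of another sample was used or met (0 unused columns).

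Genes that reached a value of 10 in 4 or more of these libraries were kept. log2(value + 1) was fitted with limma 3.58.1 in R 4.3.3 (trend, robust), with 3 group means, and p-values were adjusted by the Benjamini-Hochberg method with a threshold of 0.05. Fold changes on this scale understate the change of low genes. The change in mesenchyme was compared with that in epithelium by an interaction over 24 libraries. Alternatives were pseudocounts of 0.5 and 8, no filter, a mean of at least 50, TMM scaling, edgeR 4.0.16 and DESeq2 1.42.0 on recovered reads, both groups alone, library weights, a leukocyte covariate, a replicate block and leaving out each library. The procedure was tested on simulated data. Tables and figures were made with Python 3.11.15, pandas 2.3.3, numpy 2.4.6 and matplotlib 3.10.9.

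Named genes were the 15 largest called rises and falls with separate groups and a mean of at least 50 in the higher group (predicted genes, pseudogenes and small RNAs left out), every called list member, the most abundant member of lists with no call, and Ptx3, Chl1 and Ly6g. Of these, 1 gene is not reported here. Cxcl2, Ccl2, Stat3, Socs3, Cebpb, Hspa5, Cdkn1a, Col1a1, Col3a1, Il1b, S100a8, S100a9, Retnlg, Mmp9 and the genes of the last section outside the lists were chosen after their values were seen. Genes, lists and motifs were chosen with earlier results of these data known. The p-values measure the spread between these samples. No pair of libraries agreed within sampling noise.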

Additional observations from a re-analysis of the deposited data

Results flagged for a closer look

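In 18 of 258 groups of 4 libraries of named genes, 1 library stood apart, its gap to the nearest other library exceeding Dixon's critical share of the range. Chance flags about 1 in 20 groups. Among the depleted libraries these shares of the range were 0.836 for Hp, 0.915 for Saa1, 0.839 for Saa2, 0.833 for Gpam, 0.864 for Kcnj8, 0.886 for Ptgis, 0.917 for Rpl15 and 0.964 for Gfra1. Among the irradiated libraries they were 0.848 for Ggnbp1, 0.861 for Nav2, 0.939 for Nckap5, 0.858 for Ccl7, 0.893 for Cxcl1, 0.875 for Cxcl12, 0.891 for Dtx4, 0.847 for Serpina3g, 0.861 for Ppp1r12b and 0.854 for Steap4. The groups compared did not overlap in these genes except Rpl15.

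For 21 named genes the depletion change differed between mesenchyme and epithelium by a test of the difference itself. On the log2 scale, mesenchyme minus epithelium, it was higher in mesenchyme by 3.75 for Cxcl5, 3.36 for Lcn2, 2.55 for Ptx3, 1.96 for Hp, 1.94 for Il33, 1.48 for Slc39a14, 1.45 for Lbp, 1.37 for Ptgs2, 1.04 for both Il17ra and Sod2, and 0.885 for Il1r1. Smaller differences were 0.687 for the receptor gene Egfr, 0.561 for Tgfbr2, 0.552 for Fth1, 0.538 for Rps26, 0.536 for Il6st, 0.443 for Pdia6, 0.413 for Tnfrsf1a and 0.392 for Pdia4. The change was lower in mesenchyme for Chn2 (-1.08) and Nav2 (-0.647). Cxcl5 passed the mesenchymal filter only through the depleted libraries, so its difference is a description. Under some alternatives the adjusted p passed the threshold of 0.05 for Chn2 (up to 0.118), Pdia4 (0.113), Hp (0.0974), Tnfrsf1a (0.0966), Il17ra (0.0920), Pdia6 (0.0914), Rps26 (0.0693), Egfr (0.0645) and Il6st (0.0508).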

How the results depend on the processing

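DESeq2 on recovered reads called 531 genes higher and 254 lower. The lower calls numbered 58 with both groups alone, 73 with the leukocyte covariate and 194 with the replicate block, and the block gave 58 genes that differed between fractions. Leaving out 1 library gave 152 to 475 higher and 23 to 324 lower genes, and 43 to 152 that differed between fractions. The cause of these shifts was not tested. TMM scaling (340 and 110) and edgeR (330 and 94) stayed within 1.5 times of the reported counts. Correlations of same-numbered libraries were 0.0277, 0.130, -0.0335 and 0.0987, so the replicate numbers were not taken to pair the mice. Of 129 named calls 52 ended under no alternative that tested them, among them 12 of the 15 largest rises and 4 of the 15 largest falls. These rises include Cxcl5, Csf3 and Saa1, which passed the filter only through the depleted libraries and were not tested at a mean of at least 50. Cxcl5 and Saa1 were also not tested when a depleted library was left out and the filter was applied anew. Among named genes signs turned only in ones that were not called: Ccl6 (-0.177 with DESeq2, -0.166 with edgeR), Cryab (0.0353 with library weights), and, on leaving out 1 library, Ccl6 (-0.33 to 0.508), Cryab (-0.0553 to 0.0751), Hbb-bs (-0.51 to 0.0329), mt-Co1 (-0.0195 to 0.0858) and Socs3 (-0.0472 to 0.149). Leave-outs with the gene filter of all 12 libraries were chosen after seeing the data. Genes under about 3 reads, such as Ly6g, Il17a and Il22, could not be compared at this depth.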

Other observations

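Outside the gene lists, several secreted or surface genes were higher in the depleted mesenchymal libraries, all chosen after their values were seen. Steap4, a metalloreductase gene, had 1634 to 2139 normalised counts in irradiated and 3238 to 4539 in depleted libraries (limma log2 change 1.16 ± 0.12, adjusted p = 7.36e-05). Prg4, which encodes lubricin, changed by 1.90 ± 0.38 (adjusted p = 0.0279), Gfra1, a receptor for GDNF, by 1.92 ± 0.39 (adjusted p = 0.0206), Lrg1, a leucine-rich glycoprotein of the acute phase, by 1.34 ± 0.33 (adjusted p = 0.0404), and Sele, the endothelial adhesion gene E-selectin, by 1.49 ± 0.26 (adjusted p = 0.00487). The calls of Steap4 and Sele ended under no alternative that tested them. Those of Lrg1, Prg4 and Gfra1 ended under 9, 7 and 3 alternatives, with adjusted p of up to 0.151, 0.0957 and 0.0746, in each case without depleted replicate 1 or 4 among others, and that of Prg4 also with the leukocyte covariate (0.0645) and the replicate block (0.083). Saa4 was not tested, with 12.3, 7.20, 6.77 and 17.1 in depleted libraries and no more than 3.41 in irradiated ones.

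Among genes that fell, Pram1 (-2.59 ± 0.54, adjusted p = 0.0216), Acod1 (-2.31 ± 0.57, adjusted p = 0.0481), Ltb (-2.33 ± 0.56, adjusted p = 0.0380) and Trpm2 (-2.0 ± 0.48, adjusted p = 0.0372) are known from leukocytes, and the last 3 passed the low-value filter only through the irradiated libraries. The call of Acod1 ended under 15 alternatives (adjusted p of up to 0.129, and 0.0936 with the leukocyte covariate), that of Ltb under 11 (up to 0.105, and 0.0629 with that covariate), that of Trpm2 under 7 (up to 0.114) and that of Pram1 under 4 (up to 0.0738). Other genes that were called lower were Srf (-0.46, adjusted p = 0.0293), Vcl (-0.42, 0.0413), Nexn (-0.44, 0.0370), Ppp1r12b (-0.42, 0.0405), Cacna1c (-0.44, 0.0413) and Pde5a (-0.47, 0.0293), while the smooth muscle gene Acta2 was not called (-0.28 ± 0.30, adjusted p = 0.689). The 6 calls ended under 6, 10, 7, 8, 12 and 5 alternatives, with adjusted p of up to 0.103, 0.132, 0.125, 0.129, 0.129 and 0.103, each without depleted replicate 1 or 4 among others. They are single genes picked after their values were seen and stand for no gene group.

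Protein-coding genes made up 95.2% of the higher, 68.8% of the lower and 81.7% of all genes tested. The median genomic span of protein-coding genes was 69.0 kb for lower, 19.0 kb for higher and 24.9 kb for all genes tested. The mitochondrial gene mt-Co3 was listed at 1.03, 0, 1402 and 0 in irradiated and 707, 1241, 0 and 690.4 in depleted libraries, and mt-Co2 was listed at 0 in 9 of 12 mesenchymal libraries, although every cell uses both.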
